A study of Mus musculus with 18 samples.

Results

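Collagen genes were followed in the 2 somatic cell layers of the ovulating mouse follicle. The members are all rows of the count table whose name has the form of a collagen alpha chain (Col, a number, the letter a, a number), 44 of 41325 entries. Of these, 43 had enough counts to be tested and Col9a1 did not. The rule uses names alone and no measured value, but it was set with earlier results of these data known.

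Collagens are trimers of alpha chains that carry the tensile load of extracellular matrix. Fibrillar collagens form the fibres of connective tissue, collagen IV forms the sheet of basement membranes, and other chains decorate fibrils, make beaded microfibrils or span the cell membrane. In the ovary, a basement membrane separates the granulosa layer from the theca, and the collagen-rich follicle wall is remodelled when the egg is released and the follicle becomes a corpus luteum.

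The 6 groups were cumulus cells, which surround the oocyte, and mural granulosa cells, which line the follicle wall, sampled at the times 0, 4 and 12 h counted from hCG, human chorionic gonadotropin, which stands in for the ovulatory surge. Each group had 3 libraries, and 0 h is the baseline. All samples came from ovaries of WT mice. The labels do not state strain, age, any earlier hormone priming or whether libraries came from separate animals, so the p-values rest on the variation among these libraries, which may be technical. The question addressed is how the transcriptomes of both cell types change through ovulation.

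Libraries held 32211630 to 47919446 counts. Levels are CPM, counts per megaread of the scaled library total, and a count of 3 in a library, the limit that a count of 0 allows, was at most 0.0999 CPM. Groups follow the sample titles: of the 9 titles naming cumulus cells, 8 carried a mural cell-type entry and 1 carried none. The aromatase gene Cyp19a1, a marker of mural cells, averaged 82.2 ± 11.8 CPM in cumulus and 734 ± 145 CPM in mural cells at 0 h (SD, n = 3 each). Replicate 3 of the cumulus cells at 4 h stood apart with 7423 summed CPM of 15 oocyte marker genes, against 2332 and 1191 CPM in the other libraries of its group. Replicate 1 of the cumulus cells at 0 h also stood apart, with 418 CPM against 1965 and 2051 CPM. In cumulus cells mitochondrial transcripts took 2.52 to 2.98% of counts at 12 h and 8.49 to 12.8% at 0 h. In such bulk samples fewer cells of a type and less RNA per cell cannot be told apart.

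Several members lie next to each other in the genome (GRCm38, GENCODE M21 annotation). Col4a1 (chr8:11198423-11312826, minus strand) and Col4a2 (chr8:11312805-11449287, plus strand) are head to head and their exons overlap by 22 bases. Col4a4 and Col4a3 are head to head on chromosome 1 with 71 bases between them, and Col4a6 and Col4a5 on chromosome X with 1308 bases. Col6a2 and Col6a1 follow each other on chromosome 10, and Col6a6, Col6a5 and Col6a4 on chromosome 9. Promoter windows of 300 bases (250 before to 50 after the start, RefSeq, GRCm38.p6) were matched for 35 of the 44 members, with 38 windows in all. The windows below are those of the pair with the highest levels at 12 h and of Col24a1, the member with the largest rise at 4 h. They are written 5′ to 3′ along the gene. In the windows of Col4a1 (chr8:11312777-11313076, minus strand) and Col4a2 (chr8:11312555-11312854, plus strand) capitals mark CCAAT and GGGCGG on either strand. In that of Col24a1 (chr3:145292222-145292521, plus strand) they mark the palindrome TGACGTCA, known as the cAMP response element.
Col4a1: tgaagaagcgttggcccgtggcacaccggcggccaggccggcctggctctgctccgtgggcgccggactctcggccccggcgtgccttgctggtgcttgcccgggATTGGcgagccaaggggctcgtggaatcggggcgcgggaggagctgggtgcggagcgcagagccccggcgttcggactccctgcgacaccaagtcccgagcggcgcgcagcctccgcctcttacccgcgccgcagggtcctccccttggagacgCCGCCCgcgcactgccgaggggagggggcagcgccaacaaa
Col4a2: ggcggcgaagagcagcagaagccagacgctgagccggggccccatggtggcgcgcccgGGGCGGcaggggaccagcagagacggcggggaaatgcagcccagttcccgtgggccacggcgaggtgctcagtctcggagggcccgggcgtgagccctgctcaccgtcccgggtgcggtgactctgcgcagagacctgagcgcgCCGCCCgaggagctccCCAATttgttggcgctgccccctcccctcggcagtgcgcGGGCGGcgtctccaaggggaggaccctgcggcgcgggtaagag
Col24a1: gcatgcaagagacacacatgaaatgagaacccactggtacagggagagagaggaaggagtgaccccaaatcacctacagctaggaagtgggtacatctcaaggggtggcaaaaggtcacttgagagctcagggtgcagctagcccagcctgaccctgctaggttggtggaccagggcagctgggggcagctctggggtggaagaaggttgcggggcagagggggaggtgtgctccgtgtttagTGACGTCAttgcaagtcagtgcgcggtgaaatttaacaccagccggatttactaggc

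The windows of Col4a1 and Col4a2 share 78 bases, read from opposite strands, and 1 GGGCGG match lies in the shared stretch. Among 32851 mouse promoter windows of this length, 37.4% held CCAAT, 35.7% GGGCGG and 1.79% TGACGTCA, searched on both strands. TGACGTCA occurred in 1 of the 38 member windows, that of Col24a1, where it also holds the shorter motif TGACG, found in 20.8% of all windows. A match is a description of letters and not evidence of binding.

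In cumulus cells the summed collagen level was highest at 12 h, and the basement membrane chains Col4a1 and Col4a2 then made up the largest share of it. The summed level of the 44 genes was 247 to 255 CPM in cumulus cells at 0 h, 466 to 537 CPM at 4 h and 3798 to 4139 CPM at 12 h. In mural cells it was 2113 to 3324 CPM at 0 h, 3053 to 3727 CPM at 4 h and 4976 to 6423 CPM at 12 h. Col4a1 and Col4a2 together took 3.22 to 3.45% of the collagen counts in cumulus cells at 0 h, 17 to 25.4% at 4 h and 48.9 to 55.9% at 12 h. The share in mural cells was 15.4 to 17.8% at 0 h, 33.3 to 35.7% at 4 h and 62.7 to 66.4% at 12 h. Within each cell type the 3 times did not overlap in this share. The interstitial chains Col1a1, Col1a2 and Col3a1 took 30.2 to 37.8% of collagen counts in mural cells at 0 h, 19.7 to 22.2% at 4 h and 7.47 to 10% at 12 h, and at most 4.12% in any cumulus library.

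**Figure D1:**
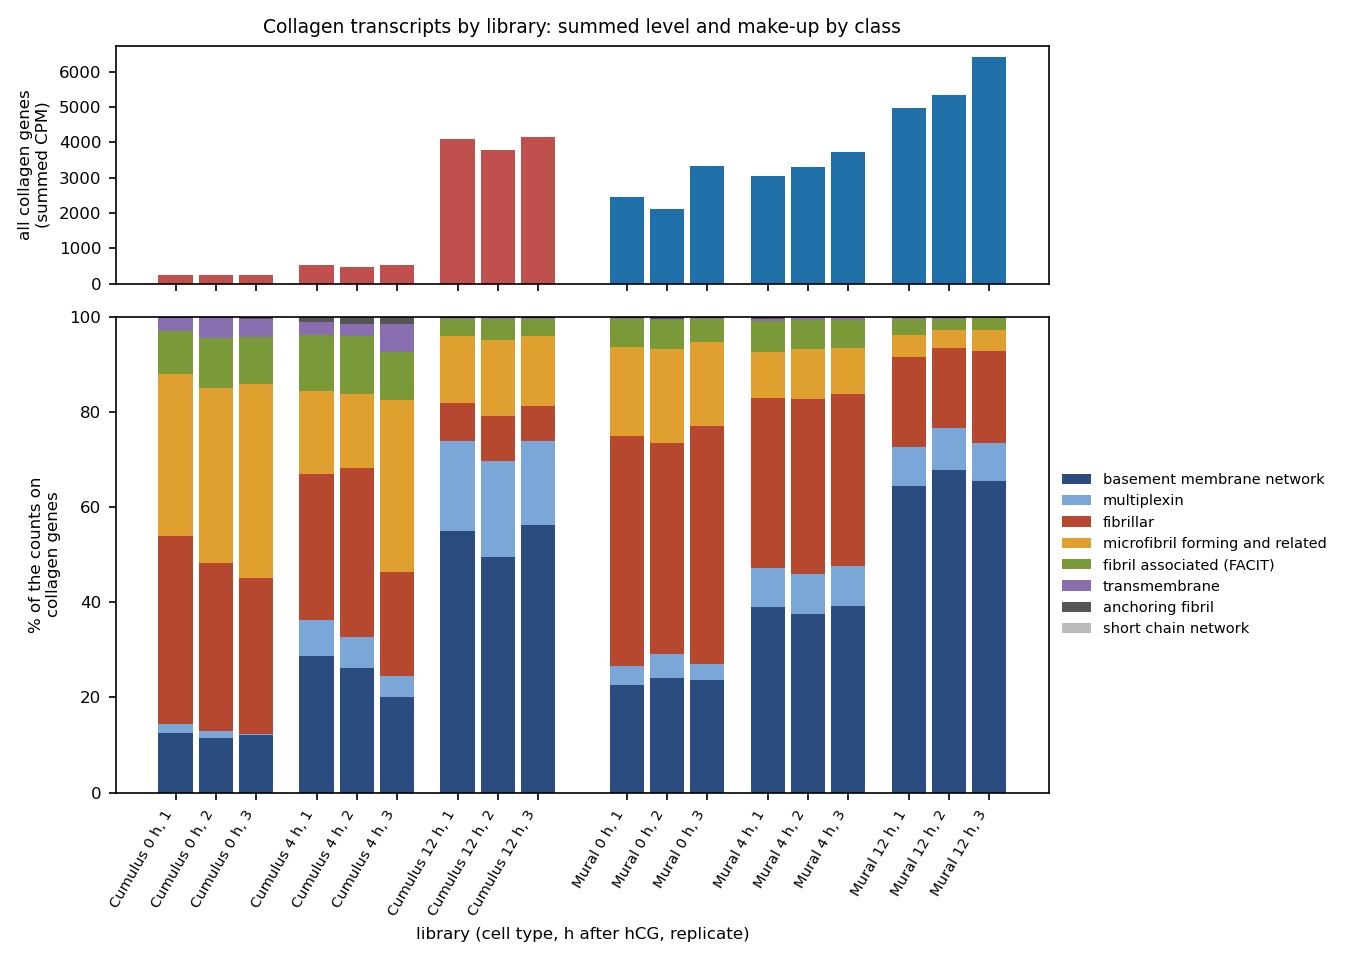
Summed CPM of the 44 collagen genes (upper panel, linear axis) and the percentage of collagen counts in each class (lower panel) in the 18 libraries, cumulus at left and mural at right. The 3 cumulus libraries at 12 h reach 3798 to 4139 CPM, above all cumulus libraries of 0 and 4 h, and the basement membrane class takes 49.4 to 56.3% of collagen counts there and 64.4 to 67.8% in mural cells at 12 h.

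Counts of called members are given beside the share of all 19941 tested genes called the same way. A gene is called where the p of edgeR's quasi-likelihood test, adjusted by Benjamini-Hochberg over all tested genes, was under 0.05, and log2 changes are ± SE (n = 3 libraries per group). In cumulus cells at 4 h against 0 h, 16 of 43 members were called higher and 5 lower, where 25% and 22.8% of all genes were. At 12 h against 0 h, 20 were higher and 14 lower (background 31.2% and 32.9%), and at 12 h against 4 h, 17 were higher and 11 lower (29.2% and 31.3%). In mural cells at 4 h against 0 h, 11 were higher and 3 lower (22.8% and 22.3%), so the count higher was near the background and the count lower was below it. At 12 h against 0 h, 12 mural members were higher and 13 lower (21.6% and 19%), and at 12 h against 4 h, 7 were higher and 10 lower (18.3% and 16.1%). The median log2 change at 12 h against 0 h was 0.67 for members and -0.09 for all genes in cumulus cells, and -0.22 and -0.05 in mural cells. Scaling by library totals alone moved the median of all genes by -0.32 to 0.18 on the log2 scale. It gave 8 higher and 11 lower in mural cells at 4 h and 9 higher and 15 lower at 12 h against 0 h.

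**Figure D2:**
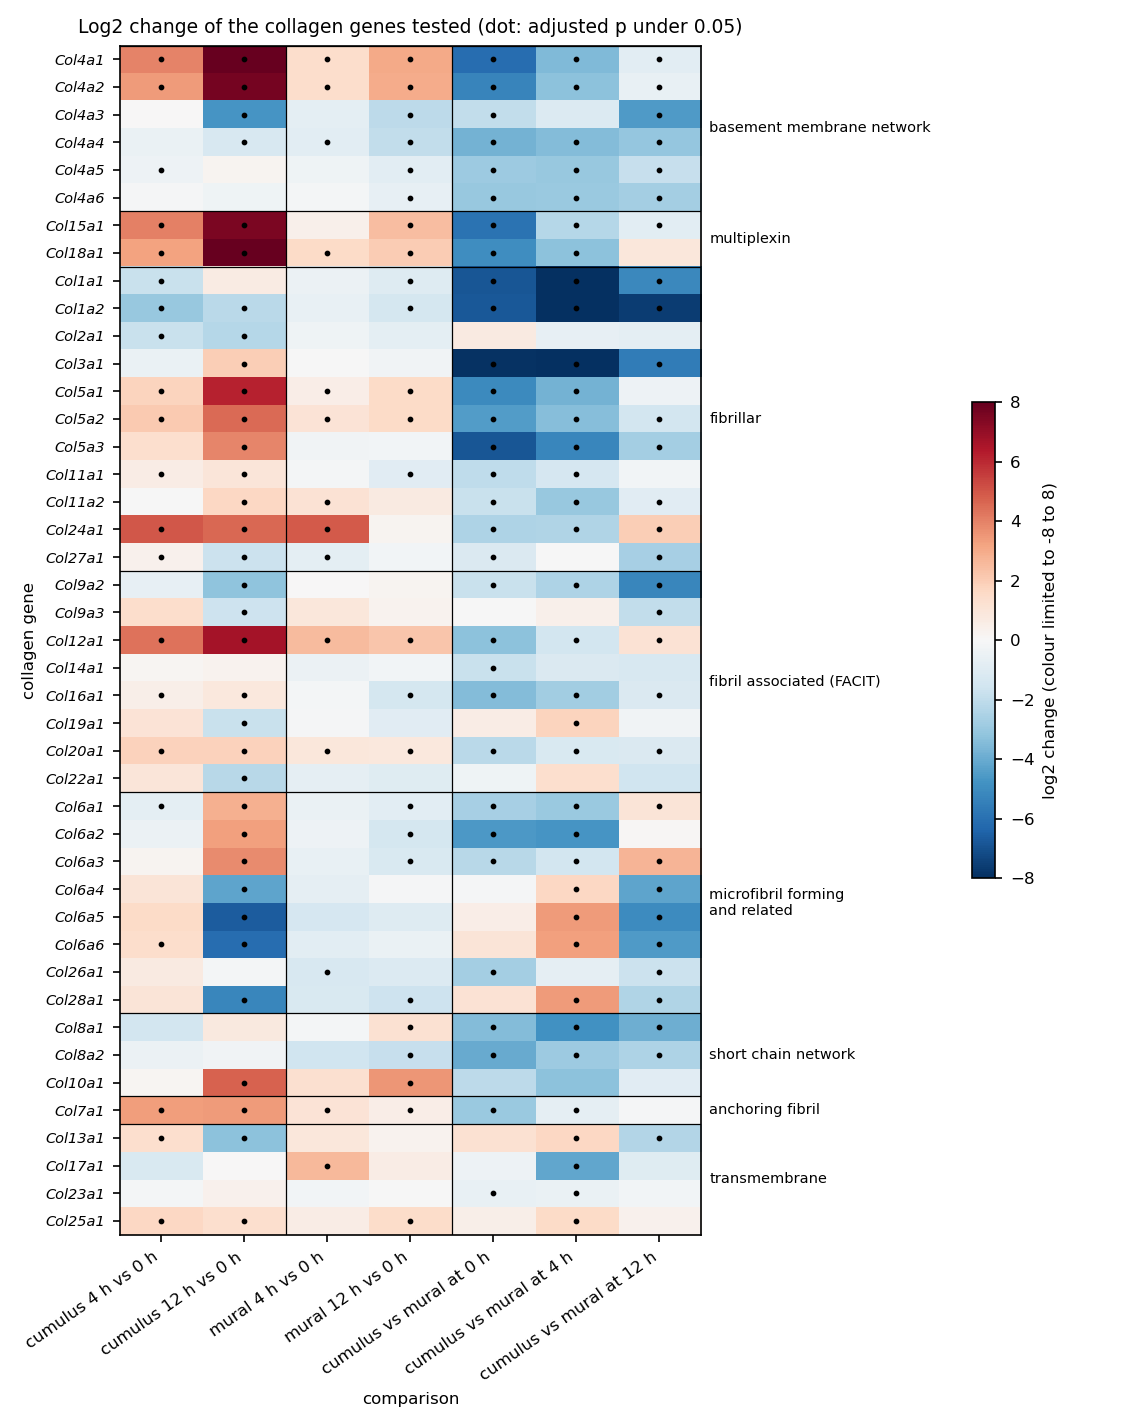
Log2 change of the 43 tested collagen genes (rows, by class) in 7 comparisons (columns), red for higher and blue for lower in the group named first, with a dot where the adjusted p was under 0.05. At 12 h in cumulus cells 20 members carry a dot as higher and 14 as lower, and at 0 h no member is called higher in cumulus than in mural cells.

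The chains of the basement membrane network moved in opposite directions: Col4a1 and Col4a2 rose in both cell types, while Col4a3 and Col4a4 fell. Col4a1 and Col4a2 encode the chains of the collagen IV trimer found in nearly all basement membranes. In cumulus cells Col4a1 had 3.77, 4.44 and 4.09 CPM at 0 h, 82.3, 62.3 and 48.5 CPM at 4 h and 1338, 1102 and 1380.0 CPM at 12 h. In mural cells Col4a1 had 235, 226 and 372 CPM at 0 h, 679.9, 695 and 839.6 CPM at 4 h and 1970.5, 2239 and 2597 CPM at 12 h. Every later cumulus or mural library was above every earlier one of the same cell type, and at each time the cumulus libraries were below the mural ones. The log2 change of Col4a1 in cumulus cells was 3.97 ± 0.23, adjusted p = 1.98e-10 at 4 h and 8.27 ± 0.27, adjusted p = 9.15e-14 at 12 h. In mural cells it was 1.41 ± 0.20, adjusted p = 1.48e-05 at 4 h and 3.03 ± 0.21, adjusted p = 2.09e-09 at 12 h. In cumulus cells Col4a2 had 4.61, 4.20 and 3.86 CPM at 0 h, 54.3, 41.2 and 38.8 CPM at 4 h and 891, 755 and 932 CPM at 12 h. In mural cells Col4a2 had 143, 136 and 221 CPM at 0 h, 395, 409.9 and 491 CPM at 4 h and 1147, 1309 and 1512 CPM at 12 h. Times did not overlap for Col4a2 either, and its changes at 12 h were 7.67 ± 0.24, adjusted p = 5.51e-14 in cumulus and 2.99 ± 0.19, adjusted p = 5.46e-10 in mural cells. Cumulus levels at 12 h were lower than mural ones by the test for Col4a1 (-0.83 ± 0.20, adjusted p = 0.00269) and for Col4a2 (-0.62 ± 0.18, adjusted p = 0.00918). The Col4a2 call was lost without cumulus replicate 2 at 12 h (adjusted p = 0.0504). The ratio of Col4a1 to Col4a2 counts was 0.817 to 1.06 in cumulus cells at 0 h, 1.25 to 1.52 at 4 h and 1.46 to 1.5 at 12 h, against 1.65 to 1.72 in all 9 mural libraries. Reads from the 22 shared bases could fall to either gene, as no source used here gives the strand setting of the counting. The summed level of 8 endothelial markers also moved: it was 18.5 to 26.6 CPM in cumulus cells at 0 h, 25.5 to 53.2 CPM at 4 h and 155 to 180 CPM at 12 h, and in mural cells 37.8 to 56.9, 32.4 to 43.8 and 129 to 162 CPM at the same times. Cdh5 made up most of it at 12 h, with 164 ± 13.2 CPM in cumulus and 127 ± 14.7 CPM in mural cells. The other defining markers Pecam1 (2.78 ± 1.04 CPM and 5.72 ± 1.08 CPM) and Tie1 (0.0283 ± 0.0294 CPM and 1.95 ± 0.446 CPM) were low and Cldn5 was at 0 in the cumulus group. Of the 8 markers, 1 was called higher and 5 lower in cumulus cells at 12 h against 0 h (median -1.90, background 31.2% and 32.9%). The mural calls were 1 higher and 0 lower (median -0.51, background 21.6% and 19%). A list of 6 theca markers summed to 1566 to 1749 CPM at 12 h and 63.3 to 85 CPM at 0 h in cumulus cells, and to 2536 to 3033 CPM and 351 to 376 CPM in mural cells. Nearly all of it at 12 h was Fdx1, a ferredoxin of steroid synthesis, with 1551 ± 95.4 CPM in cumulus and 2596 ± 292 CPM in mural cells, while the defining gene Cyp17a1 averaged 0.0704 ± 0.122 CPM in cumulus and 4.73 ± 1.94 CPM in mural cells. At 12 h against 0 h, 3 of the 6 theca markers were called higher and 1 lower in cumulus cells (median 1.24). In mural cells 1 was called higher and 2 lower (median -0.7), and the background shares are those of the endothelial calls. The part of these cell types in the collagen changes was not tested.

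Col4a3, Col4a4, Col4a5 and Col4a6 encode the chains of the specialised collagen IV networks known from the kidney glomerulus and other epithelia. In cumulus cells Col4a3 had 1.86, 2.04 and 3.03 CPM at 0 h, 1.28, 1.31 and 4.64 CPM at 4 h and 0.148, 0.117 and 0 CPM at 12 h. In mural cells Col4a3 had 7.30, 7.05 and 12.8 CPM at 0 h, 4.49, 4.82 and 6.31 CPM at 4 h and 1.77, 1.79 and 2.72 CPM at 12 h. Cumulus libraries of 0 and 4 h overlapped and those of 12 h were lower, while the 3 mural times did not overlap. In cumulus cells Col4a4 had 2.54, 2.08 and 1.45 CPM at 0 h, 1.80, 1.73 and 0.667 CPM at 4 h and 0.532, 0.850 and 1.06 CPM at 12 h. In mural cells Col4a4 had 25.8, 20.3 and 38.2 CPM at 0 h, 15.5, 15.4 and 16.2 CPM at 4 h and 7.44, 5.15 and 8.77 CPM at 12 h. Its mural times were again separate and falling, and in cumulus cells only 12 h was separate from 0 h. At 12 h against 0 h the log2 change of Col4a3 was -4.70 ± 0.67, adjusted p = 8.81e-06 in cumulus and -2.11 ± 0.49, adjusted p = 0.00212 in mural cells, and that of Col4a4 was -1.30 ± 0.36, adjusted p = 0.00427 and -1.98 ± 0.32, adjusted p = 7.33e-05. Cumulus Col4a3 was highest in replicate 3 at 4 h, the library with 7423 summed CPM of oocyte markers, and lowest at 12 h, when that sum was 6.10 to 11 CPM. The part of oocyte RNA in this level was not tested. The mural fall of Col4a4 at 4 h (-0.84 ± 0.31, adjusted p = 0.0362) was lost without mural replicate 3 at 0 h or mural replicate 1, 2 or 3 at 4 h (adjusted p = 0.0613 to 0.193). Against 4 h, the mural falls at 12 h were lost for Col4a3 without mural replicate 1, 2 or 3 at 4 h or mural replicate 1, 2 or 3 at 12 h (adjusted p = 0.0613 to 0.148), and also with library totals (-1.17, adjusted p = 0.0901) or with no filter on low counts (-1.29, adjusted p = 0.0655). That of Col4a4 was lost without mural replicate 2 at 12 h (adjusted p = 0.0569). In cumulus cells Col4a5 had 16.4, 13.6 and 15 CPM at 0 h, 12.5, 12.4 and 8.79 CPM at 4 h and 19.4, 15.1 and 16.7 CPM at 12 h. In mural cells Col4a5 had 122, 99.4 and 118 CPM at 0 h, 77.0, 101 and 93.1 CPM at 4 h and 64.8, 56.0 and 65.0 CPM at 12 h. Mural Col4a5 at 12 h lay below both earlier times, with a change of -0.87 ± 0.14, adjusted p = 7.09e-05 against 0 h. In cumulus cells Col4a5 was lower at 4 h (-0.42 ± 0.15, adjusted p = 0.0261). This call was lost without cumulus replicate 1 or 3 at 0 h or cumulus replicate 3 at 4 h (adjusted p = 0.0613 to 0.114), and also with the groups compared alone (-0.47, adjusted p = 0.141) or without cumulus replicate 1 at 0 h and replicate 3 at 4 h together (-0.20, adjusted p = 0.266). At 12 h Col4a5 was not called against 0 h (0.19 ± 0.14). In cumulus cells Col4a6 had 2.84, 2.16 and 2.46 CPM at 0 h, 2.36, 2.7 and 2.06 CPM at 4 h and 2.13, 2.35 and 1.40 CPM at 12 h. In mural cells Col4a6 had 21.4, 17.4 and 22.6 CPM at 0 h, 18.5, 19.7 and 17.4 CPM at 4 h and 14.1, 11.8 and 12.7 CPM at 12 h. The cumulus times overlapped with no call, and the mural level at 12 h was lower than at 0 h (-0.67 ± 0.18, adjusted p = 0.00619).

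**Figure D3:**
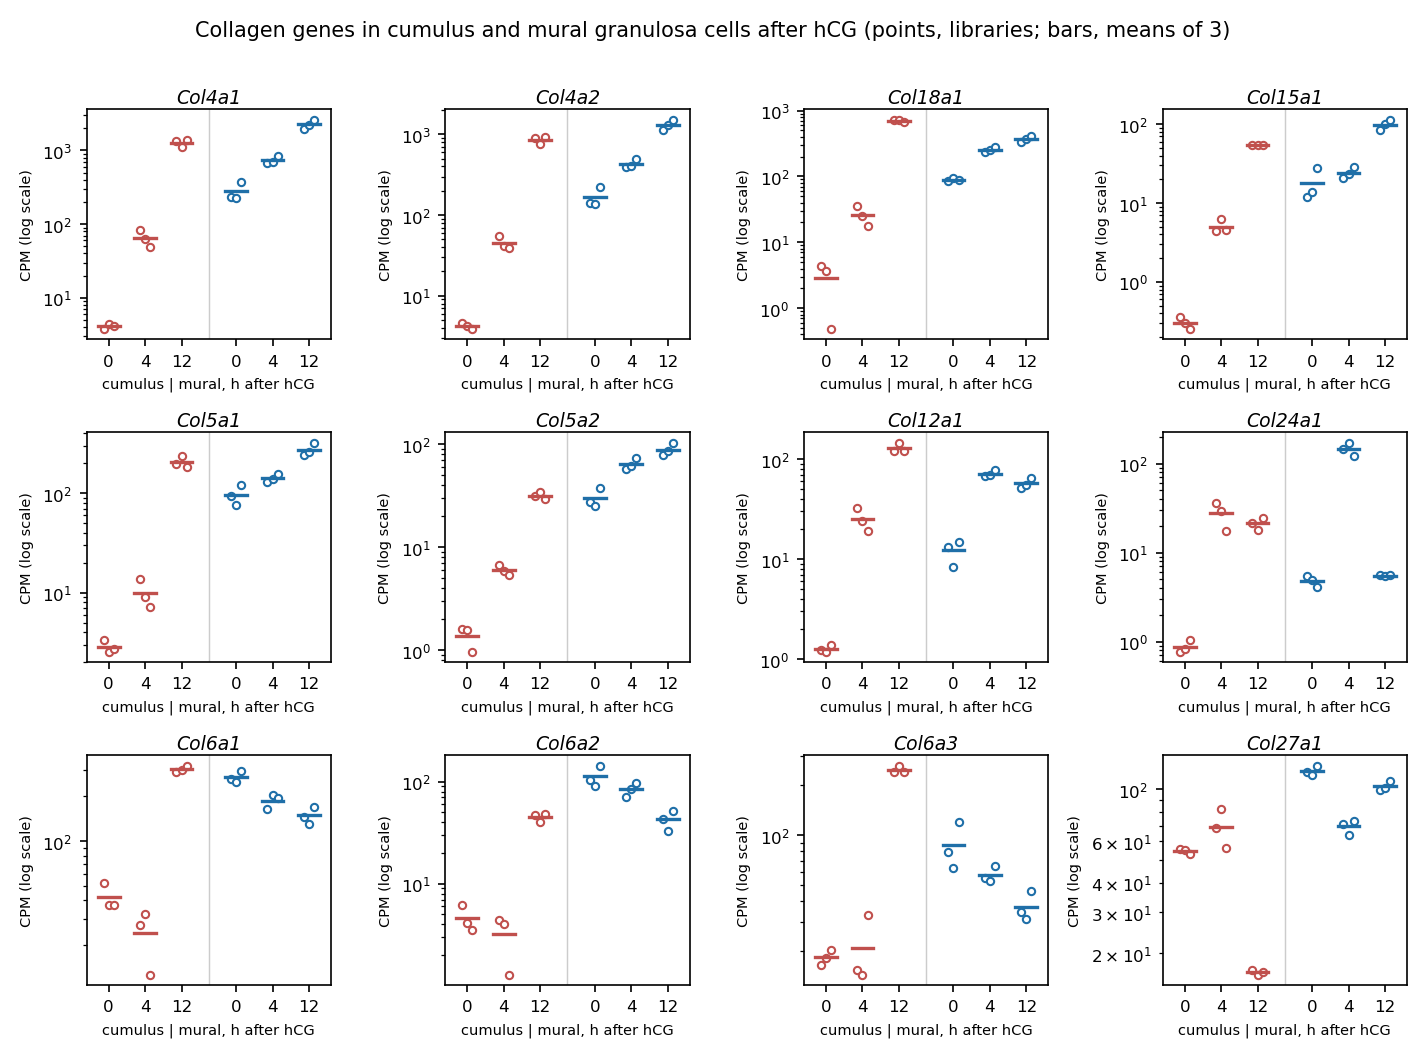
CPM on a log axis of 12 collagen genes in each library (points) with group means of 3 (bars), cumulus left and mural right in each panel, by hours after hCG. The cumulus libraries of Col4a1 lie at 1102 to 1380 CPM at 12 h, and those of mural Col24a1 at 123 to 171 CPM at 4 h and at most 5.62 CPM at the other times.

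The multiplexins Col15a1 and Col18a1, proteoglycans at the outer face of basement membranes, rose alongside. Col18a1 is the precursor of the fragment endostatin. In cumulus cells Col18a1 had 4.42, 3.62 and 0.483 CPM at 0 h, 35.2, 24.8 and 17.6 CPM at 4 h and 719, 711 and 671 CPM at 12 h. In mural cells Col18a1 had 85.3, 95.7 and 88.0 CPM at 0 h, 233, 251 and 279.8 CPM at 4 h and 328, 371 and 409.9 CPM at 12 h. No later library of Col18a1 overlapped an earlier time in either cell type, and replicate 3 of the cumulus cells at 0 h was the lowest of all. The change at 12 h was 7.95 ± 0.50, adjusted p = 2.55e-10 in cumulus and 2.04 ± 0.37, adjusted p = 0.000233 in mural cells. At 12 h all cumulus libraries lay above all mural ones, but the difference was not called (0.92 ± 0.36, adjusted p = 0.0525). In cumulus cells Col15a1 had 0.355, 0.300 and 0.253 CPM at 0 h, 4.38, 6.22 and 4.5 CPM at 4 h and 54.1, 55.0 and 55.2 CPM at 12 h. In mural cells Col15a1 had 12.0, 14 and 28.1 CPM at 0 h, 20.7, 23.0 and 28.5 CPM at 4 h and 83.8, 99.9 and 113 CPM at 12 h. Cumulus times were separate throughout, and mural 0 and 4 h overlapped. Col15a1 rose by 4.05 ± 0.34, adjusted p = 2.33e-08 at 4 h and 7.50 ± 0.34, adjusted p = 4.78e-12 at 12 h in cumulus cells, and by 2.46 ± 0.24, adjusted p = 2.5e-07 at 12 h in mural cells.

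Among the fibrillar chains, Col24a1, a minor chain that in mouse marks bone-forming cells, had the largest rise at 4 h of all 43 tested members in both cell types. In cumulus cells Col24a1 had 0.764, 0.820 and 1.03 CPM at 0 h, 36.0, 29.6 and 17.5 CPM at 4 h and 21.3, 18 and 24.7 CPM at 12 h. In mural cells Col24a1 had 5.46, 4.96 and 4.09 CPM at 0 h, 145, 171 and 123 CPM at 4 h and 5.62, 5.41 and 5.53 CPM at 12 h. Mural libraries were high at 4 h alone, while cumulus libraries of 4 and 12 h overlapped and both lay far above 0 h. The change at 4 h was 4.98 ± 0.25, adjusted p = 4.94e-11 in cumulus and 4.92 ± 0.24, adjusted p = 2.17e-11 in mural cells, and from 4 to 12 h it was -0.38 ± 0.20, adjusted p = 0.114 in cumulus cells, not called, and -4.73 ± 0.23, adjusted p = 1.22e-10 in mural cells. The change from 0 to 12 h differed between the cell types by 4.41 ± 0.32, adjusted p = 2.33e-08, and that from 0 to 4 h by 0.06 ± 0.30, adjusted p = 0.914.

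Col5a1 and Col5a2, chains of collagen V that regulates fibril diameter, rose in both cell types. In cumulus cells Col5a1 had 3.36, 2.54 and 2.73 CPM at 0 h, 13.8, 9.08 and 7.23 CPM at 4 h and 196, 238 and 183 CPM at 12 h. In mural cells Col5a1 had 93.5, 75.6 and 119 CPM at 0 h, 128, 139 and 156 CPM at 4 h and 242, 256 and 319.6 CPM at 12 h. All times were separate in both cell types. Its change at 12 h was 6.16 ± 0.25, adjusted p = 1.32e-12 in cumulus and 1.5 ± 0.20, adjusted p = 9.37e-06 in mural cells. Its mural change at 4 h (0.55 ± 0.20, adjusted p = 0.0316) was lost without mural replicate 1 or 2 at 0 h or mural replicate 1, 2 or 3 at 4 h (adjusted p = 0.0618 to 0.212), and also with library totals (0.22, adjusted p = 0.397) or with no filter on low counts (0.54, adjusted p = 0.0554). In cumulus cells Col5a2 had 1.61, 1.58 and 0.965 CPM at 0 h, 6.71, 5.83 and 5.34 CPM at 4 h and 31.5, 34.0 and 29.5 CPM at 12 h. In mural cells Col5a2 had 27.2, 25.2 and 37.9 CPM at 0 h, 57.8, 61.3 and 72.5 CPM at 4 h and 77.8, 85.2 and 103 CPM at 12 h. Times were separate for Col5a2 as well, with 4.51 ± 0.21, adjusted p = 3.65e-12 in cumulus and 1.56 ± 0.17, adjusted p = 8.09e-07 in mural cells at 12 h. The partner chain Col5a3 was scarce: summed over 3 libraries cumulus cells held 29 counts at 12 h against 2 at 0 h, a ratio of 17.8 (95% interval 4.51 to 154, counting error only). Mural cells had 295 counts of Col5a3 at 0 h.

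The interstitial chains Col1a1, Col1a2 and Col3a1, main products of fibroblasts, had at most 5.36 CPM in any cumulus library and at least 99.2 CPM in every mural library. In cumulus cells Col1a1 had 3.55, 2.18 and 2.55 CPM at 0 h, 0.651, 0.607 and 1.17 CPM at 4 h and 4.64, 3.02 and 5.36 CPM at 12 h. In mural cells Col1a1 had 297, 218 and 437 CPM at 0 h, 201, 227 and 263 CPM at 4 h and 142, 119.6 and 204 CPM at 12 h. Replicate 3 was the highest mural library at each time, and mural 12 h lay below mural 0 h. In cumulus cells Col1a2 had 4.91, 2.34 and 1.65 CPM at 0 h, 0.0224, 0.607 and 0.50 CPM at 4 h and 0.473, 0.0293 and 1.37 CPM at 12 h. In mural cells Col1a2 had 308, 229 and 451 CPM at 0 h, 185, 221 and 258 CPM at 4 h and 119, 99.2 and 161 CPM at 12 h. Cumulus Col1a2 at 4 h was below all libraries of 0 h, and mural Col1a2 followed the order of Col1a1. In cumulus cells Col3a1 had 2.05, 0.980 and 0.391 CPM at 0 h, 1.5, 0.243 and 0.361 CPM at 4 h and 4.85, 3.99 and 4.38 CPM at 12 h. In mural cells Col3a1 had 239.7, 191 and 368 CPM at 0 h, 216, 244 and 305 CPM at 4 h and 186, 180.3 and 277 CPM at 12 h. Mural times of Col3a1 overlapped, with no call between them. Mural changes at 12 h were -1.03 ± 0.26, adjusted p = 0.00357 for Col1a1 and -1.38 ± 0.44, adjusted p = 0.0177 for Col1a2. The mural call of Col1a2 was lost without mural replicate 1 or 3 at 0 h or mural replicate 1 or 2 at 12 h (adjusted p = 0.0605 to 0.09), and also with no filter on low counts (-1.36, adjusted p = 0.0839) or with DESeq2 (-1.37, adjusted p = 0.213). With the groups compared alone Col1a1 was not called there (adjusted p = 0.0686). In cumulus cells Col1a1 fell at 4 h (-1.76 ± 0.36, adjusted p = 0.000549) as did Col1a2 (-3.05 ± 0.69, adjusted p = 0.00147), and Col3a1 was higher at 12 h than at 0 h (1.99 ± 0.47, adjusted p = 0.00142). The fall of Col1a2 was lost without cumulus replicate 1 at 0 h and replicate 3 at 4 h together (adjusted p = 0.0504). The summed level of 7 stromal fibroblast markers also differed, at 3.11 to 10.1 CPM over the cumulus and 29.3 to 80.5 CPM over the mural libraries. In mural cells it was 43.0 to 80.5 CPM at 0 h, highest in replicate 3, 44.6 to 61.7 CPM at 4 h and 29.3 to 41.9 CPM at 12 h. All 7 were detected in mural cells, and in cumulus cells Dpt was at 0 at 0 and 4 h and Tcf21 at 12 h. In cumulus cells the stromal sum was 4.99 to 6.63 CPM at 0 h and 3.11 to 4.34 CPM at 4 h. At 12 h it was 8.24 to 10.1 CPM, of which Mfap5 averaged 5.86 ± 0.957 CPM. A sum of 8 smooth muscle and pericyte markers was 87.4 to 163 CPM in mural cells at 0 h, highest in replicate 3. It was 85.6 to 161 CPM at 4 h and 122 to 124 CPM at 12 h. In cumulus cells it was 10.8 to 29 CPM, 17.8 to 96.7 CPM and 7.65 to 10.9 CPM at 0, 4 and 12 h. The part of stromal, smooth muscle or pericyte RNA in the levels of these 3 chains was not tested.

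Col11a1 and Col11a2 belong to collagen XI, a nucleator of cartilage fibrils, and Col27a1 is a fibrillar chain of cartilage. In cumulus cells Col11a1 had 26.5, 21.2 and 17.0 CPM at 0 h, 36.9, 35.6 and 23.8 CPM at 4 h and 40.5, 44.8 and 38.9 CPM at 12 h. In mural cells Col11a1 had 85.8, 69.0 and 112 CPM at 0 h, 70.7, 84.1 and 85.6 CPM at 4 h and 53.9, 38.2 and 53.1 CPM at 12 h. The cell types moved apart in sign: Col11a1 was higher at 12 h in cumulus cells (0.94 ± 0.20, adjusted p = 0.000552) and lower in mural cells (-0.88 ± 0.20, adjusted p = 0.00163), with no overlap between 12 and 0 h in either. In cumulus cells Col11a2 had 1.34, 1.0 and 0.506 CPM at 0 h, 1.14, 1.06 and 0.528 CPM at 4 h and 3.96, 3.05 and 1.88 CPM at 12 h. In mural cells Col11a2 had 4.14, 2.97 and 2.86 CPM at 0 h, 8.12, 6.63 and 7.49 CPM at 4 h and 7.27, 4.75 and 4.71 CPM at 12 h. Cumulus Col11a2 was higher at 12 h (1.64 ± 0.37, adjusted p = 0.000877) and mural Col11a2 at 4 h (1.16 ± 0.35, adjusted p = 0.012), the mural call being lost without mural replicate 2 or 3 at 0 h (adjusted p = 0.0534 to 0.0554), and also with library totals (0.85, adjusted p = 0.0505). Their partner Col2a1 stayed at or below 1.15 CPM in every library. In cumulus cells Col27a1 had 55.6, 55.0 and 53.1 CPM at 0 h, 68.3, 82.4 and 56.4 CPM at 4 h and 17.0, 16.2 and 16.7 CPM at 12 h. In mural cells Col27a1 had 119, 115 and 126 CPM at 0 h, 71.1, 63.8 and 73.5 CPM at 4 h and 99.2, 101 and 108 CPM at 12 h. Cumulus libraries of 12 h lay below all earlier ones (-1.71 ± 0.11, adjusted p = 3.57e-10), and mural libraries were lowest at 4 h (-0.79 ± 0.11, adjusted p = 1.05e-05).

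Of the fibril-associated collagens, which sit on fibril surfaces, Col12a1 rose most. In cumulus cells Col12a1 had 1.23, 1.18 and 1.38 CPM at 0 h, 32.3, 24.3 and 19.1 CPM at 4 h and 121, 146 and 120.5 CPM at 12 h. In mural cells Col12a1 had 13.3, 8.41 and 15 CPM at 0 h, 68.3, 68.9 and 77.9 CPM at 4 h and 51.7, 55.5 and 64.8 CPM at 12 h. Cumulus times were separate and rising, while mural libraries were high at 4 h and those of 12 h lay between 4 and 0 h. Col12a1 rose by 6.67 ± 0.25, adjusted p = 3.33e-13 in cumulus and 2.23 ± 0.19, adjusted p = 4.54e-08 in mural cells at 12 h, when cumulus cells were higher (1.17 ± 0.19, adjusted p = 8.8e-05). In cumulus cells Col16a1 had 9.47, 6.16 and 6.37 CPM at 0 h, 11.5, 9.77 and 9.59 CPM at 4 h and 14.8, 9.70 and 15.2 CPM at 12 h. In mural cells Col16a1 had 80.1, 76.1 and 82.2 CPM at 0 h, 70.1, 72.5 and 74.0 CPM at 4 h and 31.7, 24.3 and 33.0 CPM at 12 h. The mural level at 12 h was below all earlier mural libraries (-1.42 ± 0.17, adjusted p = 2.53e-06), and the cumulus level was higher at 12 h than at 0 h (0.86 ± 0.18, adjusted p = 0.000396). In cumulus cells Col9a2, a chain of cartilage collagen IX, had 7.84, 12.3 and 9.90 CPM at 0 h, 7.54, 7.38 and 3.98 CPM at 4 h and 1.30, 1.47 and 0.475 CPM at 12 h. In mural cells Col9a2 had 32.5, 29.4 and 42.0 CPM at 0 h, 37.3, 32.3 and 37.6 CPM at 4 h and 56.0, 25.4 and 37.4 CPM at 12 h. Mural times overlapped with no call, and cumulus Col9a2 fell at 12 h (-3.22 ± 0.37, adjusted p = 6.49e-07). Its partner Col9a3 reached 7.98 CPM in cumulus replicate 3 at 4 h, its highest library, and Col9a1 never passed 0.250 CPM. In cumulus cells Col20a1 had 1.86, 1.52 and 3.24 CPM at 0 h, 7.41, 11.7 and 4.84 CPM at 4 h and 8.16, 10.2 and 5.36 CPM at 12 h. In mural cells Col20a1 had 8.74, 10.4 and 10.2 CPM at 0 h, 17.2, 19.9 and 18.2 CPM at 4 h and 20, 15.6 and 16.6 CPM at 12 h. Col20a1 was higher at both later times in both cell types, but the mural calls were lost without several single libraries: at 4 h without mural replicate 1 or 2 at 0 h or mural replicate 2 or 3 at 4 h (adjusted p = 0.0504 to 0.0836), and also with library totals (0.59, adjusted p = 0.128). At 12 h the Col20a1 call was lost without mural replicate 1, 2 or 3 at 0 h or mural replicate 1 or 3 at 12 h (adjusted p = 0.0609 to 0.109), and also with library totals (0.66, adjusted p = 0.0957). The remaining members of the class, Col14a1, Col19a1 and Col22a1, had means under 5 CPM in all groups.

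Col6a1, Col6a2 and Col6a3 encode the chains of collagen VI, a beaded microfibril around cells, and moved in opposite directions in the cell types. In cumulus cells Col6a1 had 52.6, 37.1 and 37.2 CPM at 0 h, 27.4, 32.5 and 12.6 CPM at 4 h and 292, 302 and 322 CPM at 12 h. In mural cells Col6a1 had 262, 249 and 295 CPM at 0 h, 164, 204 and 194 CPM at 4 h and 146, 131 and 169.7 CPM at 12 h. Cumulus libraries of Col6a1 at 12 h lay above all earlier cumulus ones, and mural libraries of 12 h lay below those of 0 h. In cumulus cells Col6a2 had 6.14, 4.08 and 3.54 CPM at 0 h, 4.44, 4.01 and 1.28 CPM at 4 h and 47.3, 40.1 and 48.7 CPM at 12 h. In mural cells Col6a2 had 104, 90.0 and 143 CPM at 0 h, 71.3, 85 and 97.4 CPM at 4 h and 43.4, 32.8 and 52.1 CPM at 12 h. For Col6a2, too, the cumulus libraries were highest at 12 h and the mural ones lowest. In cumulus cells Col6a3 had 16.5, 18.2 and 20.3 CPM at 0 h, 15.5, 14.4 and 33.3 CPM at 4 h and 242, 263 and 239.9 CPM at 12 h. In mural cells Col6a3 had 79.5, 63.3 and 120.0 CPM at 0 h, 55.6, 53.2 and 65.3 CPM at 4 h and 34.5, 31.2 and 45.9 CPM at 12 h. All cumulus libraries of Col6a3 at 12 h exceeded every other library of that gene. At 12 h against 0 h, Col6a1 changed by 2.85 ± 0.25, adjusted p = 1.9e-08 in cumulus and -0.85 ± 0.23, adjusted p = 0.00632 in mural cells, Col6a2 by 3.31 ± 0.33, adjusted p = 1.07e-07 and -1.39 ± 0.30, adjusted p = 0.000961, and Col6a3 by 3.76 ± 0.29, adjusted p = 4.48e-09 and -1.24 ± 0.26, adjusted p = 0.00104. At 12 h cumulus levels were higher for Col6a3 (2.74 ± 0.28, adjusted p = 6.35e-07) and Col6a1 (1.03 ± 0.23, adjusted p = 0.00183) and not called for Col6a2 (0.08 ± 0.29, adjusted p = 0.85). The fall of Col6a1 in cumulus cells at 4 h (-0.81 ± 0.23, adjusted p = 0.00897) was lost without cumulus replicate 1 at 0 h (adjusted p = 0.0619), and also with the groups compared alone (-0.85, adjusted p = 0.112). That of mural Col6a2 from 4 to 12 h (-0.98 ± 0.29, adjusted p = 0.0144) was lost without mural replicate 3 at 4 h or mural replicate 2 at 12 h (adjusted p = 0.0848 to 0.101), and also with no filter on low counts (-0.95, adjusted p = 0.0671). The ratio of Col6a1 to Col6a2 counts was 6.18 to 7.53 in cumulus cells at 12 h and 3.26 to 4 in mural cells.

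Another set of collagen VI-like chains, Col6a4, Col6a5 and Col6a6, the related Col28a1, and Col13a1, a transmembrane collagen of cell contacts, fell in cumulus cells at 12 h, when oocyte markers were near 0. In cumulus cells Col6a6 had 3.93, 15.6 and 19.1 CPM at 0 h, 24.4, 12.3 and 67.5 CPM at 4 h and 0.325, 0.0879 and 0.158 CPM at 12 h. In mural cells Col6a6 had 2.97, 5.44 and 10.9 CPM at 0 h, 3.30, 3.68 and 3.82 CPM at 4 h and 5.17, 3.65 and 4.66 CPM at 12 h. Replicate 3 of the cumulus cells at 4 h was the highest of the 18 libraries and all cumulus libraries of 12 h were under 1 CPM. In cumulus cells Col28a1 had 4.86, 8.64 and 10.6 CPM at 0 h, 10.5, 3.10 and 36.4 CPM at 4 h and 0.177, 0.147 and 0.317 CPM at 12 h. In mural cells Col28a1 had 2.28, 2.90 and 5.62 CPM at 0 h, 1.26, 1.84 and 1.59 CPM at 4 h and 1.21, 0.933 and 1.30 CPM at 12 h. In cumulus cells Col6a5 had 1.42, 3.36 and 4.71 CPM at 0 h, 5.12, 3.01 and 19.0 CPM at 4 h and 0, 0.0293 and 0.0528 CPM at 12 h. Both were highest in the same library, and Col6a5 rested on 3 counts over the 3 cumulus libraries of 12 h. In mural cells Col6a5 had 0.859, 1.41 and 4.22 CPM at 0 h, 0.466, 0.761 and 1.35 CPM at 4 h and 1.35, 0.853 and 0.922 CPM at 12 h. In cumulus cells Col6a4 had 1.26, 4.98 and 5.08 CPM at 0 h, 5.81, 2.85 and 15 CPM at 4 h and 0.177, 0.264 and 0.158 CPM at 12 h. In mural cells Col6a4 had 3.71, 3.60 and 4.63 CPM at 0 h, 2.06, 3.30 and 2.06 CPM at 4 h and 3.29, 4.4 and 3.49 CPM at 12 h. The order of libraries was the same for Col6a4 at 4 h, with replicate 3 highest and replicate 2 lowest. In cumulus cells Col13a1 had 0.819, 3.02 and 3.22 CPM at 0 h, 4.89, 3.04 and 10.3 CPM at 4 h and 0.266, 0.322 and 0.132 CPM at 12 h. In mural cells Col13a1 had 0.585, 0.680 and 1.73 CPM at 0 h, 1.63, 1.93 and 2.11 CPM at 4 h and 1.49, 1.09 and 1.07 CPM at 12 h. Cumulus libraries of Col13a1 at 12 h lay below all others of the cell type, and mural times overlapped in part. At 12 h against 0 h the cumulus change was -6.07 ± 0.79, adjusted p = 3.47e-06 for Col6a6, -5.20 ± 0.75, adjusted p = 1.02e-05 for Col28a1, -4.23 ± 0.63, adjusted p = 1.49e-05 for Col6a4 and -3.29 ± 0.61, adjusted p = 0.00013 for Col13a1. For Col6a5 the ratio over the groups was 0.00868 (95% interval 0.00178 to 0.0255, counting error only). Oocyte RNA was measured beside these genes. The 15 oocyte markers summed to 418 to 2051 CPM in cumulus cells at 0 h, 1191 to 7423 CPM at 4 h and 6.10 to 11 CPM at 12 h, with Zp1 and Figla at 0 at 12 h, and to 135 to 636 CPM in mural cells. The part of oocyte RNA in these levels was not tested. Without replicate 3 of the cumulus cells at 4 h the excess of cumulus over mural cells at that time was not called for Col6a4 (0.88, adjusted p = 0.105) or Col13a1 (1.13, adjusted p = 0.0715). The mural fall of Col28a1 at 12 h (-1.65 ± 0.61, adjusted p = 0.0399) was lost without mural replicate 2 or 3 at 0 h or mural replicate 1, 2 or 3 at 12 h (adjusted p = 0.0682 to 0.196), and also with no filter on low counts (-1.63, adjusted p = 0.116).

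**Figure D4:**
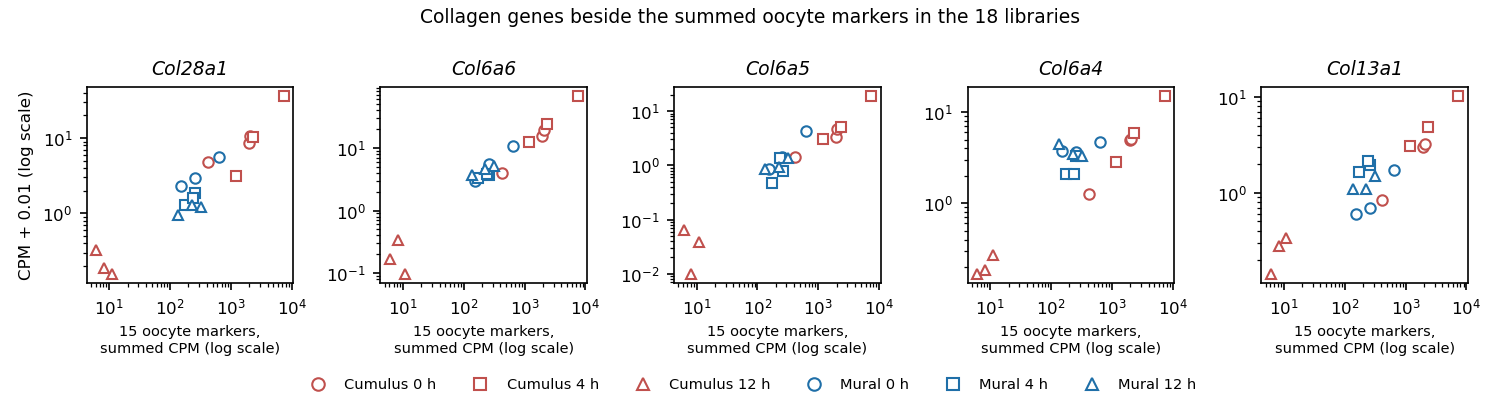
CPM + 0.01 of Col28a1, Col6a6, Col6a5, Col6a4 and Col13a1 against the summed CPM of 15 oocyte markers, both on log axes, in the 18 libraries (red cumulus, blue mural, symbols for 0, 4 and 12 h). The cumulus libraries of 12 h lie at the lower left at 6.10 to 11 CPM of oocyte markers and cumulus replicate 3 of 4 h at the upper right at 7423 CPM.

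Col7a1, the anchoring fibril collagen, rose at 4 h. In cumulus cells Col7a1 had 0.491, 0.680 and 0.804 CPM at 0 h, 5.99, 7.10 and 7.40 CPM at 4 h and 7.39, 6.16 and 7.18 CPM at 12 h. In mural cells Col7a1 had 5.25, 5.01 and 5.51 CPM at 0 h, 13.2, 10.3 and 10.3 CPM at 4 h and 7.33, 8.29 and 6.88 CPM at 12 h. Cumulus libraries of 4 and 12 h overlapped and lay above 0 h, while mural libraries were highest at 4 h. The change at 4 h was 3.36 ± 0.21, adjusted p = 6.16e-10 in cumulus and 1.10 ± 0.19, adjusted p = 0.000106 in mural cells. In cumulus cells Col25a1, a transmembrane collagen of neurons, had 2.07, 4.28 and 3.17 CPM at 0 h, 7.61, 5.74 and 16.7 CPM at 4 h and 5.5, 9.06 and 9.46 CPM at 12 h. In mural cells Col25a1 had 2.03, 2.04 and 2.97 CPM at 0 h, 2.96, 3.74 and 3.85 CPM at 4 h and 4.75, 6.69 and 7.72 CPM at 12 h. It was higher at 12 h than at 0 h in both, by 1.33 ± 0.36, adjusted p = 0.00396 in cumulus and 1.44 ± 0.37, adjusted p = 0.0039 in mural cells, and cumulus replicate 3 at 4 h was again the highest library. Col17a1, a hemidesmosome collagen, was 4.09, 3.46 and 3.5 CPM in mural cells at 4 h against 0.488, 0.932 and 0.437 CPM at 0 h (2.57 ± 0.60, adjusted p = 0.00188), and at most 0.792 CPM in cumulus cells. Its mural fall from 4 to 12 h (-1.97 ± 0.59, adjusted p = 0.0139) was lost without mural replicate 2 or 3 at 12 h (adjusted p = 0.0653 to 0.0672). Col23a1 stayed between 2.18 and 5.03 CPM in the 18 libraries. The short chain collagens were low: Col8a1 was 2.95, 5.57 and 3.94 CPM in mural cells at 12 h and 1.23, 1.30 and 2.41 CPM at 4 h (1.33 ± 0.47, adjusted p = 0.0352), a call lost without mural replicate 1 or 2 at 4 h or mural replicate 2 or 3 at 12 h (adjusted p = 0.0671 to 0.166). Its partner Col8a2 fell in mural cells at 12 h (-1.85 ± 0.66, adjusted p = 0.0319), which was lost without mural replicate 1, 2 or 3 at 0 h or mural replicate 1, 2 or 3 at 12 h (adjusted p = 0.0536 to 0.127). Col10a1 had 29 counts in cumulus cells at 12 h against 1 at 0 h, a ratio of 35.7 (95% interval 5.91 to 1460, counting error only). The scarce Col26a1 was lower in mural cells at 4 h (-1.26 ± 0.50, adjusted p = 0.049), lost without mural replicate 1 or 3 at 0 h or mural replicate 1, 2 or 3 at 4 h (adjusted p = 0.0627 to 0.174), and also with relative log expression factors (-1.23, adjusted p = 0.0539), with no filter on low counts (-1.27, adjusted p = 0.0948) or with the replicate block (-1.20, adjusted p = 0.0642).

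Before hCG, cumulus cells had less collagen RNA than mural cells for most members. At 0 h, 0 of 43 members were called higher and 31 lower in cumulus cells, where 21.5% and 25.3% of all genes were. With unadjusted p under 0.05, 1 member was higher in edgeR, and DESeq2 called 1. At 4 h, 7 were higher and 28 lower (27.6% and 27%), and at 12 h, 4 were higher and 26 lower (18% and 20.5%). Col3a1, Col1a1 and Col1a2 were far lower in cumulus cells at 0 h, at -7.90 ± 0.52, adjusted p = 3.72e-09, -6.85 ± 0.34, adjusted p = 1.69e-10 and -6.81 ± 0.57, adjusted p = 5.67e-08, followed by Col4a1 at -6.08 ± 0.25, adjusted p = 1.79e-11 and Col15a1 at -5.89 ± 0.33, adjusted p = 7e-10. For Col5a3 the ratio over the groups was 0.00712 (95% interval 0.000859 to 0.026, counting error only). At 4 h the members higher in cumulus cells were Col28a1, Col6a4, Col6a5, Col6a6, Col13a1, Col19a1 and Col25a1, and 4 were called without replicate 3 of the cumulus cells. The call of Col19a1 (1.81 ± 0.66, adjusted p = 0.0272) was lost without mural replicate 1 or 3 at 4 h or cumulus replicate 3 at 4 h (adjusted p = 0.0967 to 0.143), and also with the groups compared alone (1.83, adjusted p = 0.102) or without cumulus replicate 1 at 0 h and replicate 3 at 4 h together (1.19, adjusted p = 0.154). Libraries of the same replicate number deviated together weakly at 4 h, but no label states a pairing and the main fit held no block. With the replicate number as a block over all libraries, Col23a1 was no longer called lower at 4 h (adjusted p = 0.0606). That call was also lost with relative log expression factors, library totals, no filter on low counts or the groups compared alone (adjusted p = 0.0627 to 0.188). It was lost as well without mural replicate 2 or 3 or cumulus replicate 1 or 2 at 4 h (adjusted p = 0.0865 to 0.159). At 12 h the members higher in cumulus cells were Col6a3, Col24a1 (1.95 ± 0.21, adjusted p = 1.37e-06), Col12a1 and Col6a1, and for these 4 the cell types did not overlap.

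The change after hCG differed between the cell types for some members. The part of oocyte or stromal RNA in these differences was not tested. From 0 to 4 h, 9 of 43 members changed more upward in cumulus cells and 1 more downward, where 6.78% and 7.26% of all genes did, and from 0 to 12 h 18 and 8 did (20.1% and 20%). The difference from 0 to 12 h was 5.24 ± 0.30, adjusted p = 1.64e-09 for Col4a1 and 4.99 ± 0.39, adjusted p = 4.97e-08 for Col6a3. Col4a1 rose in both cell types by unequal amounts, whereas Col6a3 rose in cumulus and fell in mural cells. Comparisons against 0 h and these differences share the 0 h libraries, and comparisons of 12 h with 4 h share libraries with them.

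Levels of different genes were set side by side per kb of exon (GENCODE M21, overlapping exons merged). The ranks depend on these merged lengths, such as 12.43 kb for Col1a2 and 6.56 kb for Col1a1. In cumulus cells at 12 h Col4a1 was highest at 171 ± 20.1 CPM per kb (SD, n = 3), then Col4a2 at 130.0 ± 14, Col18a1 at 99.8 ± 3.67 and Col6a1 at 69.7 ± 3.46. At 0 h the cumulus order was led by Col6a1 at 9.66 ± 2.04 CPM per kb, Col27a1 at 4.19 ± 0.0996 and Col9a2 at 3.23 ± 0.716, with Col4a1 at rank 12 of 44. In mural cells at 12 h Col4a1 led at 304 ± 42.1 CPM per kb and Col4a2 followed at 200 ± 27.6. At 0 h the mural mean was highest for Col6a1 at 61.4 ± 5.42 CPM per kb, inside the spread of Col1a1 at 48.4 ± 16.9. Col4a1 at 37.2 ± 11 CPM per kb also lay within the spread of Col1a1.

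Genes that make, crosslink, bind and cleave collagen were followed in 5 lists. For hydroxylation and folding, 17 of 20 tested genes were called higher and 1 lower in cumulus cells at 12 h against 0 h (median 1.11), and 2 of 20 tested genes were called higher and 8 lower in mural cells (median 0.03). P4ha3, a prolyl 4-hydroxylase subunit, averaged 13.5 ± 1.70 CPM at 12 h and 0.619 ± 0.104 CPM at 0 h in cumulus cells (4.45 ± 0.26, adjusted p = 7.4e-11). The prolyl 3-hydroxylase P3h1 (2.28 ± 0.14) and the lysyl hydroxylase Plod1 (1.68 ± 0.16) rose in cumulus cells. Mural P3h1 averaged 261 ± 18 CPM at 0 h and 268 ± 11.4 CPM at 12 h. Mural Plod1 averaged 197 ± 21.6 CPM and 140 ± 10.3 CPM at these times. Colgalt2, which adds galactose to hydroxylysine, fell in cumulus (-3.62 ± 0.19) and mural cells (-3.68 ± 0.19).

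For processing and crosslinking, 8 of 14 tested genes were called higher and 4 lower in cumulus cells and 9 of 14 tested genes were called higher and 2 lower in mural cells at 12 h. Lox, the lysyl oxidase that starts crosslinks, had 1862, 2005 and 1784 CPM in cumulus cells at 12 h, against 13.5, 9.98 and 11.2 CPM at 0 h (7.35 ± 0.26, adjusted p = 1.78e-13). In mural cells it had 142, 137 and 135 CPM at 12 h, against 8.55, 7.81 and 12.6 CPM at 0 h (3.84 ± 0.22, adjusted p = 1.94e-10). Tgm2, a transglutaminase, averaged 247 ± 40.8 CPM at 12 h and 0.326 ± 0.0736 CPM at 0 h in cumulus cells (9.54 ± 0.37, adjusted p = 6.57e-13). No library of 12 h overlapped one of 0 h for Lox or Tgm2 in cumulus cells. The enhancers of procollagen cleavage Pcolce (3.51 ± 0.21) and Pcolce2 (4.45 ± 0.49) also rose there. Loxl2 (3.44 ± 0.27) and the procollagen peptidase Adamts3 (3.44 ± 0.39) rose in mural cells. Mural Adamts3 was highest at 4 h, at 22.0 ± 1.43 CPM, against 8.86 ± 0.205 CPM at 12 h. Mural Pcolce averaged 74.6 ± 10.4 CPM at 0 h and 223 ± 28.2 CPM at 12 h, Pcolce2 0.144 ± 0.0385 and 0.967 ± 0.161 CPM, and Tgm2 14.9 ± 4.41 and 67.0 ± 5.02 CPM. Cumulus Loxl2 averaged 26.7 ± 7.48 CPM at 0 h and 225 ± 12.2 CPM at 12 h, and Adamts3 2.83 ± 1.13 and 2.81 ± 1.29 CPM.

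Among collagen receptors, 6 of 11 tested genes were called higher and 3 lower in cumulus and 3 of 11 tested genes were called higher and 2 lower in mural cells at 12 h. Itga2, a collagen-binding integrin chain, averaged 688 ± 47.2 CPM at 12 h and 91.4 ± 19.1 CPM at 0 h in cumulus cells (2.91 ± 0.19, adjusted p = 4.63e-10) and also rose in mural cells (1.24 ± 0.18). The integrin chains Itga1 (2.59 ± 0.16) and Itgb1 (2.14 ± 0.13) rose in cumulus cells. Mural Itgb1 averaged 435 ± 15.2 CPM at 0 h and 767 ± 35.1 CPM at 12 h, and mural Itga1 17.0 ± 2.62 and 14.1 ± 2.51 CPM. Ddr1, a collagen-binding kinase, rose in mural cells (0.91 ± 0.12). Its cumulus level averaged 84.3 ± 13.5 CPM at 0 h and 260 ± 7.79 CPM at 12 h. Adgrg1, an adhesion receptor that binds collagen III, fell in cumulus (-2.67 ± 0.19) and mural cells (-2.30 ± 0.18). Of the basement membrane partners, 8 of 15 tested genes were called higher and 5 lower in cumulus and 4 of 15 tested genes were called higher and 6 lower in mural cells. Nid1, the nidogen that links laminin to collagen IV, rose in cumulus cells (4.22 ± 0.21, adjusted p = 1.45e-11), as did the collagen-binding Sparc (4.15 ± 0.22), which rose in mural cells as well (2.83 ± 0.21). Laminin chains differed: Lamc1 rose (2.57 ± 0.12) and Lama2 fell (-4.74 ± 0.67) in cumulus cells, and Lama4 fell (-1.91 ± 0.16) in mural cells. Cumulus Lama4 averaged 17.2 ± 2.54 CPM at 0 h and 7.30 ± 0.72 CPM at 12 h, and mural Lamc1 271 ± 28.9 and 441 ± 44.7 CPM. Mural Lama2 averaged 28.6 ± 9.70 CPM at 0 h and 11.1 ± 3.78 CPM at 12 h, where the oocyte marker sum was 152 to 636 and 135 to 318 CPM. Cumulus Lama2 had 4.5, 14.1 and 20.1 CPM at 0 h, 19.4, 11.9 and 59.7 CPM at 4 h and 0.621, 0.176 and 0.634 CPM at 12 h, against oocyte marker sums of 418, 1965 and 2051 CPM, 2332, 1191 and 7423 CPM, and 8.25, 11 and 6.10 CPM in the same libraries. Both were highest in replicate 3 at 4 h and lowest at 12 h, and the part of oocyte RNA was not tested. Of the enzymes that cleave collagen, 5 of 8 tested genes were called higher and 0 lower in cumulus and 3 of 8 tested genes were called higher and 0 lower in mural cells. Mmp19 averaged 39.2 ± 2.33 CPM at 12 h and 0.231 ± 0.161 CPM at 0 h in cumulus cells (7.39 ± 0.40, adjusted p = 4.5e-11), and 137 ± 14.4 CPM and 1.06 ± 0.271 CPM in mural cells (7.0 ± 0.36, adjusted p = 5.04e-11). The membrane-bound Mmp14 rose by 4.27 ± 0.18 in cumulus and 0.70 ± 0.16 in mural cells. The background shares for these counts are those of all genes given above.

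**Figure D5:**
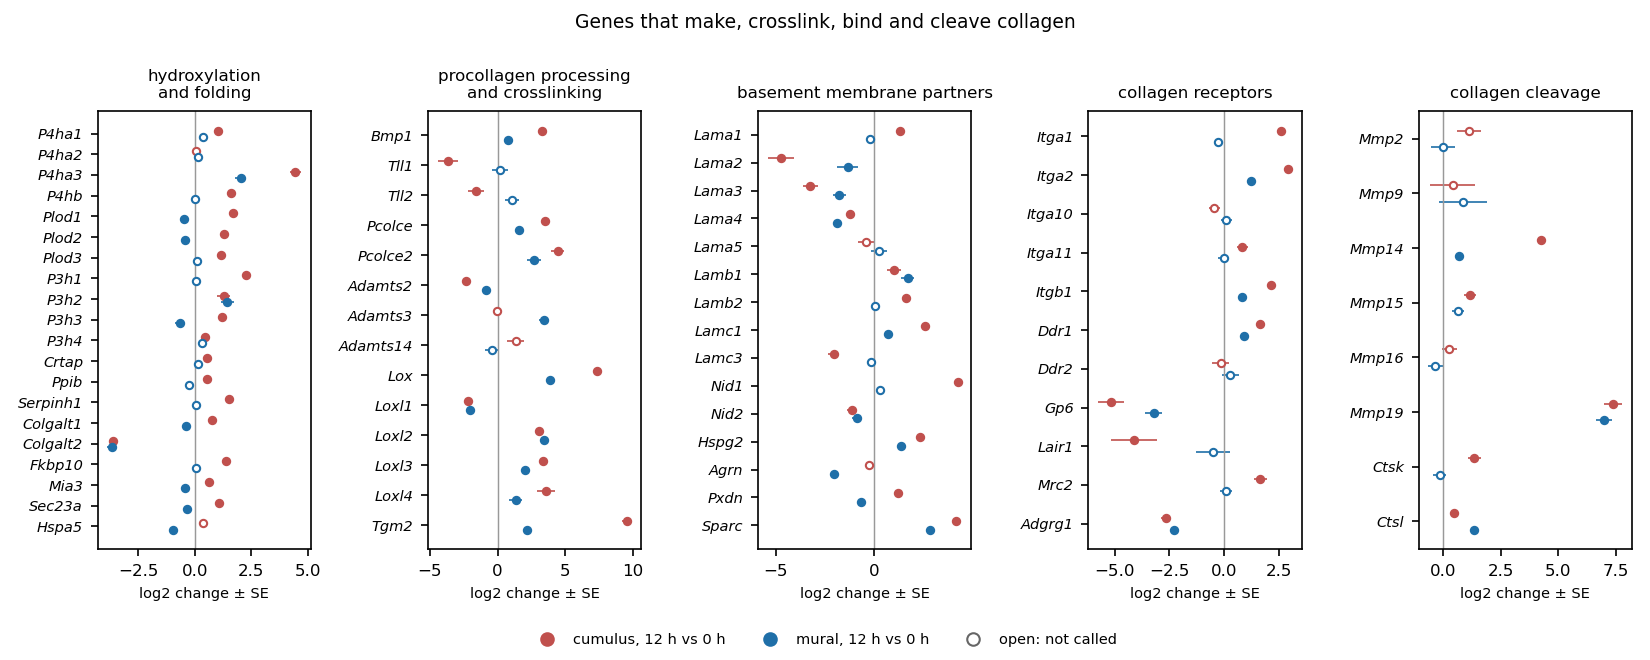
Log2 change ± SE at 12 h against 0 h of the tested genes of 5 lists in cumulus (red) and mural cells (blue), with filled points where the adjusted p was under 0.05. In the hydroxylation and folding list 17 of 20 cumulus points are called higher, and Lox and Tgm2 lie far to the right in cumulus cells.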

How the data were processed

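RNA-seq was measured in 18 libraries, 3 in each of 6 groups taken from the sample titles. Whole-number read counts per gene were used as deposited by the authors. Reads were aligned and quantified in CLC Genomics Workbench at default settings, per the series' design text, to GRCm38, per the submitters' processing notes. The annotation, the software version and whether counting used strand are not stated. Counts that the counting split between overlapping or similar genes would shift levels of those genes.

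Genes passing edgeR's filterByExpr with a minimum count of 10 were kept, 19941 genes holding 99.96% of reads. Totals were scaled by TMM (factors 0.849 to 1.18), and all 18 libraries entered 1 quasi-likelihood fit (R 4.3.3, edgeR 4.0.16) with 11 comparisons and p-values adjusted by Benjamini-Hochberg. The scripts were tested on simulated data. DESeq2 1.42.0, other scalings, no filter, the 2 groups alone, a replicate block and leaving out each library were alternatives. limma 3.58.1 was loaded with edgeR. The floor is 3 counts in a library, and 95% intervals cover counting error only. No 2 libraries of a group agreed within sampling noise.

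The members and lists were chosen with earlier results of these data known. Members reaching a mean of 5 CPM in a group are given in every library. In each comparison at most the 6 largest called rises and the 6 largest falls of members with at least 1 CPM, and their partner chains, were eligible to be named, and at most 4 genes of a pathway list. 1 gene of the basement membrane partner list is not reported here and was left out of its counts. Other members, and named pathway genes in their other cell type, were added after their values were seen. Samples with the same replicate number deviated together in all 3 pairs (correlations 0.195, 0.121 and 0.186) for cumulus against mural cells at 4 h. At 12 h the correlations were 0.041, 0.0152 and 0.0306. These are weak. Those at 0 h were larger and differed in sign (0.607, -0.0915 and 0.479). So were those of cumulus cells at 4 h against 0 h (0.465, -0.557 and 0.597). No label states a pairing, so the main fit held no block.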

Additional observations from a re-analysis of the deposited data

Results flagged for a closer look

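The change after hCG differed between cumulus and mural cells for these collagen genes, by an interaction term in edgeR's fit with adjusted p under 0.05. Values are the log2 change in cumulus cells minus that in mural cells. From 0 to 4 h the difference was 3.63 ± 0.42 for Col15a1, 2.56 ± 0.29 for Col4a1, 2.26 ± 0.28 for Col7a1, 2.03 ± 0.26 for Col4a2 and 1.77 ± 0.29 for Col12a1. The difference for Col18a1 was 1.69 ± 0.54, adjusted p = 0.0444 and was lost without mural replicate 1, 2 or 3 at 0 h, mural replicate 1, 2 or 3 at 4 h, cumulus replicate 2 at 0 h or cumulus replicate 1 or 2 at 4 h (adjusted p = 0.0597 to 0.112), and also with no filter on low counts (1.70, adjusted p = 0.145), with DESeq2 (1.67, adjusted p = 0.0662) or with the groups compared alone (1.70, adjusted p = 0.19). For Col17a1 it was -3.77 ± 0.90, where the mural level rose at 4 h.

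From 0 to 12 h the difference was 5.91 ± 0.56 for Col18a1, 5.24 ± 0.30 for Col4a1, 5.04 ± 0.41 for Col15a1, 4.99 ± 0.39 for Col6a3, 4.70 ± 0.44 for Col6a2 and 4.68 ± 0.27 for Col4a2. Genes that changed more downward in cumulus cells were Col6a6 at -5.55 ± 0.98, Col6a4 at -4.13 ± 0.80, Col13a1 at -3.58 ± 0.80, Col28a1 at -3.55 ± 0.94 and Col9a2 at -3.41 ± 0.48. For Col6a5 it was -5.60 ± 1.29, a fitted value that rests on 3 counts in cumulus cells at 12 h. Among the cumulus libraries, Col6a4, Col6a5, Col6a6, Col13a1 and Col28a1 and the oocyte marker sum were all highest in replicate 3 at 4 h. All were lowest at 12 h, and the part of oocyte RNA was not tested.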

How the results depend on the processing

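Of 271 called results for single collagen genes, 219 kept their direction and their call under every alternative run that tested the gene. Results not called in the main fit were not followed in this number. Over 3645 alternative values, 218 lost the call and 0 reversed. Counts of called members moved as follows. Mural members lower at 4 h against 0 h numbered 3, but 11 with library totals, 9 with the groups compared alone and 1 to 6 without single libraries. Mural members lower at 12 h against 4 h numbered 10, but 6 without the filter, 16 with the groups compared alone and 4 to 8 without single libraries. Cumulus members lower at 4 h against 0 h numbered 5, but 3 with the groups compared alone, 2 without cumulus replicate 1 at 0 h and replicate 3 at 4 h together and 3 to 6 without single libraries. Cumulus members higher than mural ones at 0 h numbered 0, but 1 with DESeq2, 2 with the replicate block, 1 with the groups compared alone, 4 without those libraries together and 0 to 2 without single libraries. At 4 h they numbered 7, and 4 to 8 without single libraries. Members with a more downward change in cumulus cells from 0 to 4 h numbered 1, but 2 with DESeq2, 4 with the replicate block and 1 to 3 without single libraries. The causes were not tested. No label states that replicate numbers pair the libraries, so the block is only an alternative. With 3 libraries a group and few counts for the scarce chains, small changes were not detectable.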
